A study of Mus musculus with 15 samples.

Results

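The 38 genes described here encode the core machinery of autophagy and 2 proteins of the lysosome membrane, and were taken by gene symbol. All 38 were found among the 55401 genes of the count matrix, and all 38 were among the 18136 genes that passed the filter on low counts. Their lowest count in any library was 74. RNA of whole submandibular glands, a major pair of salivary glands, was sequenced in 15 mice in 3 groups of 5. Mice of the SJQYD group were NOD/LTJ and received SJQYD, which the labels do not spell out. The model group were untreated NOD/LTJ mice, and the control group were untreated ICR mice. The labels do not say how the mice within a group are related, so the p-values measure the spread between these samples. NOD mice develop autoimmune inflammation of the salivary glands, and ICR is an outbred stock of another background. The labels give every mouse the genotype WT and state no age, sex, dose, duration or hour of collection.

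Autophagy wraps part of the cytoplasm in a double membrane, the autophagosome, which then fuses with a lysosome so that its content is digested. A kinase complex around ULK1 starts the process, a lipid kinase complex around Beclin 1 marks the membrane, ATG9 and ATG2 bring in lipid, and 2 ubiquitin-like conjugation systems attach proteins of the ATG8 family to the growing membrane, where cargo receptors bind them. Secretory cells of salivary glands use the pathway to turn over secretory granules and endoplasmic reticulum, and much of its regulation acts on proteins and not on transcript levels, which are all that was measured here.

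The stretch before the transcription start is shown for 4 genes. Gabarapl1 and Gabarapl2 are the ATG8 genes that differed between groups, and Atg5 and Lamp1 are shown as examples of promoters that hold the E-box CACGTG, the core of the element bound by TFEB and by the clock factors. Sequences are from RefSeq on GRCm38.p6, from 250 bases before the start up to the start, or up to the annotated gene where that begins earlier (218 bases for Gabarapl1). Capitals mark CACGTG.
Gabarapl1 (chr6:129532942-129533159, + strand): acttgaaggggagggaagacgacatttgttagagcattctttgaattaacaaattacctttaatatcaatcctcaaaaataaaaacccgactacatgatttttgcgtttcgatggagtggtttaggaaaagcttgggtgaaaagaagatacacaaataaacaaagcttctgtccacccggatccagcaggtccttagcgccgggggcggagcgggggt
Gabarapl2 (chr8:111940453-111940702, + strand): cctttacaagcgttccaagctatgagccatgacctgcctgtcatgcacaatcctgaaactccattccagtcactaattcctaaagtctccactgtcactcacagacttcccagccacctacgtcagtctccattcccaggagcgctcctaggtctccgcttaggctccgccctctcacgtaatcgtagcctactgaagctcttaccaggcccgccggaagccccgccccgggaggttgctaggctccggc
Atg5 (chr10:44268089-44268338, + strand): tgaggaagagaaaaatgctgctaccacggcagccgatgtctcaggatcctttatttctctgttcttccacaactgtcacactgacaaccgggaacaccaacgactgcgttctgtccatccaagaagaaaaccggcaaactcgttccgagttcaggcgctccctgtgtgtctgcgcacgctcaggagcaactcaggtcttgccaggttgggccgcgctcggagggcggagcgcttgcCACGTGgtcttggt
Lamp1 (chr8:13158911-13159160, + strand): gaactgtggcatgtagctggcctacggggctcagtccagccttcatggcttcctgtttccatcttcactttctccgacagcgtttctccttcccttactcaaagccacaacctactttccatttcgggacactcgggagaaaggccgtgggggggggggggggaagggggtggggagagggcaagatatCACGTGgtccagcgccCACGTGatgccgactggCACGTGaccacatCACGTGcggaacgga
On both strands, CACGTG occurred in 4 of 37 promoter windows of 32 of the genes (10.8%), those of Atg3, Atg5, Atg7 and Lamp1, against 6.02% of all 32851 windows of the same length. The Lamp1 window held it 4 times, starting 61, 45, 28 and 15 bases before the start, and 7 windows of 5 genes (0.0213% of all windows) held it at least as often. In Atg5 it started 14 bases before the start. None of the 37 windows held CACGTG with GT before and AC after it, the palindromic form of the element of lysosomal genes (0.24% of all windows), TTATGTAA or TTACGTAA, which DBP and its relatives bind (0.819% and 0.113%), or TGTTTAC, a forkhead motif (3.17%).

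The glands carried the transcripts of their label, in amounts that differed between libraries. Mucl2, an abundant secretory product of the mouse submandibular gland, took 15.5% to 46.4% of all counts in SJQYD, 25.8% to 45.6% in model and 42.2% to 53.8% in control libraries. No marker found for any of the 11 cell types checked was at 0 in all libraries. Total counts ran from 39510018 to 62335235, from 52746925 to 68694263 and from 54836440 to 63101584 in these groups, and 3 counts corresponded to 0.0290 to 0.0840 CPM, a limit that covers counting error only. CPM here means counts relative to the library size after scaling by TMM, which sets most genes to no change between libraries. Summed submandibular acinar markers (6 genes) ran from 84581 to 510780 CPM in SJQYD, from 214883 to 475347 CPM in model and from 417931 to 898026 CPM in control glands. Granular duct markers (7 genes) ran from 3428 to 12196, from 5851 to 9804 and from 8648 to 24396 CPM in the same order. Their medians were 6901, 9438.5 and 10256 CPM. SJQYD 1 was lowest in both. Transcripts of the adjoining parotid gland (Amy1, Bpifa2, Smr3a, Chia1) took 6.50% of counts in SJQYD 1, 16.0% in model 3 and 4.17% in control 2, and calls that change without these 3 libraries together are given with that value. SJQYD 3 had 1.01 CPM of Xist, which silences 1 X chromosome in females, against 162 to 270.2 CPM in the other 14 libraries, and stood apart from its group in this. Scaling by total count alone, without TMM, raised the median gene by 0.59 on the log2 scale for SJQYD against control, by 0.49 for model against control and by 0.11 for SJQYD against model. The changes below are changes relative to the bulk of genes.

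Among the 38 genes, levels per transcript length covered a wide range. In FPKM, the authors' counts scaled by transcript length and library total, Gabarap was highest with a mean of 61.8 over the 15 libraries, followed by Lamp1 (39.9), Gabarapl1 (25.2), Map1lc3a (24.7) and Sqstm1 (20.3). The lowest were Uvrag (0.604), Atg4c (0.694) and Atg2b (0.712). Of the 9 genes with the highest FPKM, 5 encoded ATG8 proteins and 2 cargo receptors, and the others were Lamp1 and Atg101 of the initiation complex (7.37). Among other genes that act early, Ulk1 averaged 3.47, Becn1 4.25, Pik3c3 1.58 and Atg9a 0.953 FPKM.

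Within NOD/LTJ mice, treated and untreated glands were compared first. Gabarapl1 was lower in the SJQYD glands and was the only one of the 38 called. It encodes an ATG8 protein of the GABARAP branch, which acts late in autophagosome formation and binds cargo receptors. Calls are genes with an edgeR Benjamini-Hochberg adjusted p under 0.05. Of the 38 genes 1 fell (2.63%) and 0 rose, beside 0.838% lower, 1.91% higher and 2.75% either way among all genes tested, so the share was near the background. At an unadjusted p under 0.05 in the same edgeR fit, 1 gene was higher (Atg16l1) and 3 were lower (Gabarapl1, Pik3c3 and Atg4a), and DESeq2 called 1 higher (Atg16l1) and 1 lower (Gabarapl1). No share of all genes is given for unadjusted p or for DESeq2, here or below, so such counts have no background beside them. Below 0 were 19 of the 38 fold changes (50.0%, against 53.2% of all genes), with a median of 0.03 on the log2 scale beside -0.03 for all genes. The 1 gene that was lower without overlap between the groups was Gabarapl1, where 2.29% of all genes were, and 0 were higher without overlap (3.21% of all genes).

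For model against control, which sets untreated NOD/LTJ against ICR and in which strain and disease cannot be told apart, Gabarapl2 was lower and Atg16l2 higher in the model glands. Gabarapl2 is another ATG8 gene, and Atg16l2 a paralogue of the scaffold that directs ATG8 conjugation. Of the 38 genes 1 rose and 1 fell (5.26% in all), beside 2.57% higher, 2.5% lower and 5.07% either way among all genes tested, which is near the background. At an unadjusted p under 0.05 in the same edgeR fit, 2 genes were higher and 10 lower, and DESeq2 called 1 higher (Atg16l2) and 4 lower (Atg3, Gabarap, Gabarapl2 and Nbr1). Without the matching shares of all genes, these counts cannot be read as an excess among the 38. edgeR called 6 lower without control 2 (Atg3, Atg5, Gabarap, Gabarapl1, Gabarapl2 and Nbr1) and 5 lower without SJQYD 1, model 3 and control 2 together (Atg4c, Gabarap, Gabarapl1, Gabarapl2 and Nbr1). More fold changes were below 0 than above: 25 of 38 were below 0 (65.8%), against 46.7% of all genes, and their median was -0.13 beside 0.03. With TMM scaling, all 5 genes of the initiation complex and all 5 ATG8 genes were among these 25. Atg13 and Nbr1 were lower without overlap between the groups but not called, 2 of 38 genes where 2.71% of all genes were lower without overlap, and 0 were higher (3.05%).

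SJQYD against control combines strain and treatment, and shares its libraries with the other comparisons. Atg16l1 and Atg16l2 were higher in the SJQYD glands, and Gabarapl1, Gabarapl2, Atg4c, Atg5 and Pik3c3 were lower. The 2 genes that rose and 5 that fell make 18.4% of the 38, beside 5.22% higher, 5.9% lower and 11.1% either way among all genes tested. At an unadjusted p under 0.05, 5 were higher and 10 lower, and DESeq2 called 4 higher (also Atg10 and Atg4d) and 7 lower (also Atg3 and Lamp1). These counts too have no share of all genes beside them. The median of the 38 was -0.12 beside 0.04, and 25 of 38 were below 0 (65.8%, against 46.7%). Lower without overlap were 4 genes (Gabarapl1, Pik3c3, Atg4c and Atg3, against 5.0% of all genes) and higher without overlap was 1, Atg4d (against 5.07%). These splits rest on TMM scaling: by total count alone 11 genes rose and 0 fell for SJQYD against control, 2 rose and 0 fell for model against control, and 0 were called for SJQYD against model. Without TMM, Pik3c3, Atg5 and Lamp1 stood above 0 for SJQYD against control (0.16, 0.13 and 0.17 on the log2 scale), and relative to the median gene they stood at -0.47, -0.51 and -0.46. Among genes with an edgeR adjusted p between 0.05 and 0.1, Atg3 and Wipi1 also stood above 0 there and Atg9b close to 0, and Atg13, Gabarap and Nbr1 stood above 0 for model against control, with none of these called.

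**Figure D1:**
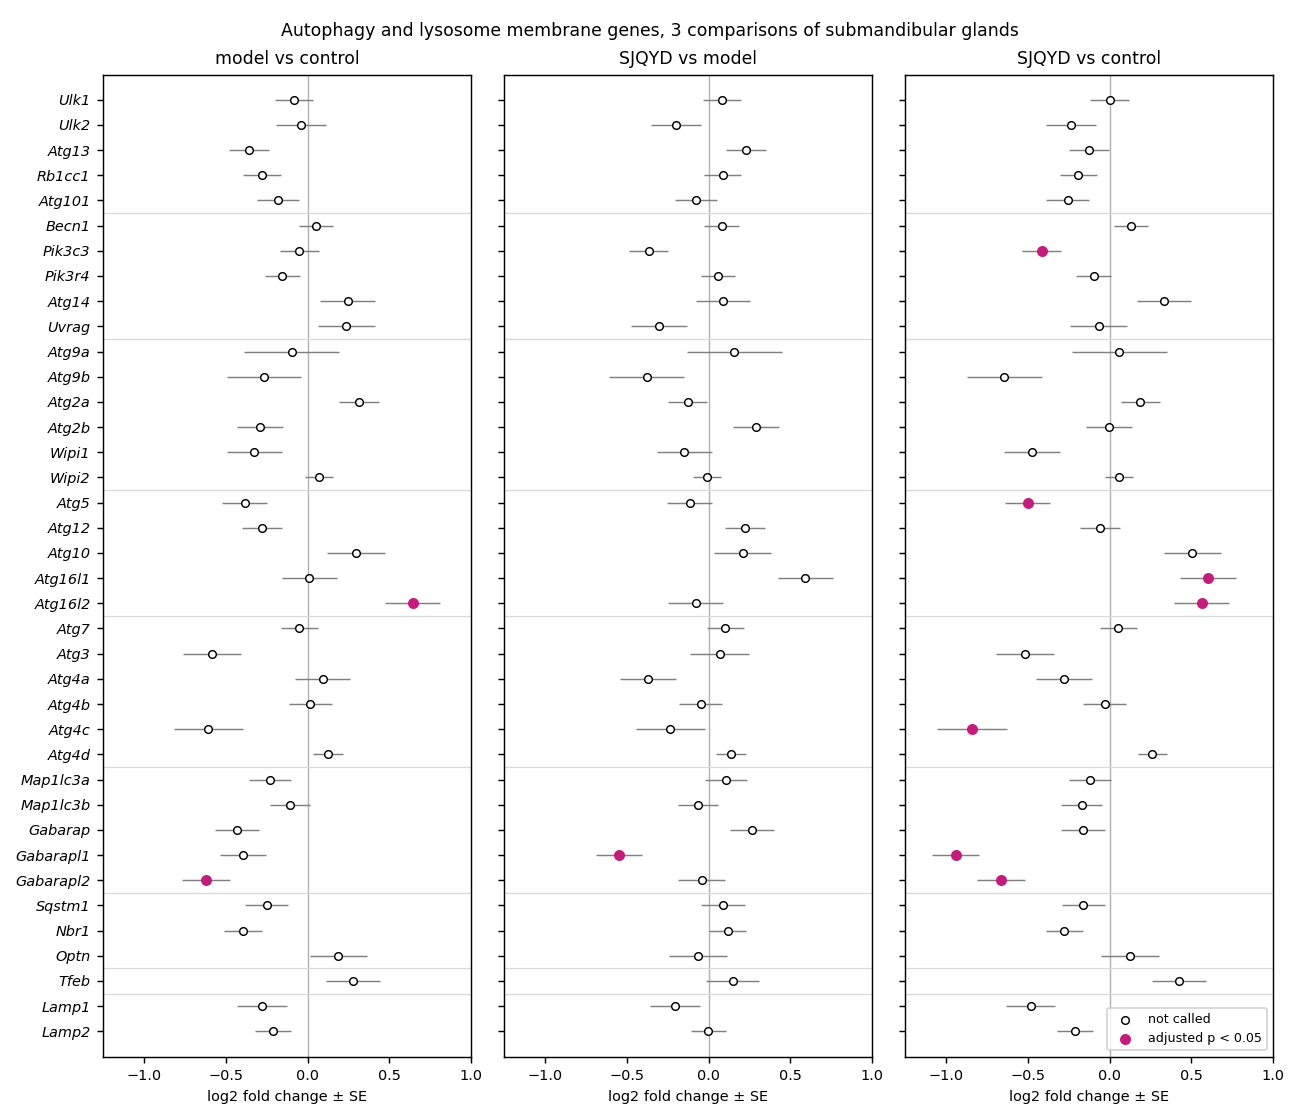
Log2 fold change with its standard error (x axis) of the 38 genes (y axis, grouped by role) in the 3 comparisons of submandibular glands; filled points have an edgeR adjusted p under 0.05. Gabarapl1 is the only filled point for SJQYD against model (-0.55), and for model against control, with TMM scaling, all 5 points of the ATG8 family lie between -0.62 and -0.11.

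The ATG8 family held the gene with the smallest adjusted p among the 38. Gabarapl1 (GRCm38 chromosome 6, 129533160 to 129542346) had 37.8, 40.4, 37.3, 46.0 and 46.0 CPM in SJQYD glands, 53.3, 62.5, 60.1, 71.1 and 56.4 CPM in model glands and 87.6, 55.0, 74.8, 77.6 and 104 CPM in control glands. Every SJQYD library was below every model and every control library, while model and control overlapped through control 2. The log2 fold change was -0.55 ± 0.14 (SE) for SJQYD against model (1.46-fold lower, edgeR adjusted p = 0.0475), -0.94 ± 0.14 for SJQYD against control (1.92-fold lower, adjusted p = 0.0008) and -0.39 ± 0.14 for model against control (adjusted p = 0.112, with 0.12 in place of -0.39 when scaled by total count alone). In bulk tissue such as this, fewer cells of a type and less RNA per cell cannot be told apart. The call against model was near the threshold: it was lost in 13 of 15 fits that left out 1 library (adjusted p 0.0561 to 0.129, with fold changes of -0.59 to -0.48) and kept without control 2 or control 5 (0.0215 and 0.0285). It was also lost without SJQYD 1, model 3 and control 2 together (-0.52, adjusted p = 0.0919), where model against control was called lower (-0.51, adjusted p = 0.0345), as it was without control 2 alone (adjusted p = 0.0183). The call against control was kept in all 15 such fits.

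A share within the family does not depend on the scaling between libraries. Of the summed FPKM of the 5 ATG8 genes, Gabarapl1 made 12.8%, 14.6%, 13.8%, 16.1% and 18.3% in SJQYD glands, 21.1%, 25.0%, 21.9%, 22.2% and 23.4% in model glands and 21.5%, 20.7%, 21.9%, 22.6% and 27.6% in control glands. The highest SJQYD share was below the lowest model and control shares, and model and control spanned like ranges. The means were 15.1% ± 2.12 in SJQYD, 22.7% ± 1.51 in model and 22.9% ± 2.75 in control (SD, n = 5 each). The share of Gabarap was 52.6% ± 3.78 in SJQYD, 45.0% ± 2.48 in model and 46.9% ± 2.63 in control. The ratio of Gabarapl1 to Map1lc3b in FPKM ran from 1.87 to 2.58 in SJQYD, from 2.69 to 3.78 in model and from 2.66 to 5.44 in control, again with no overlap of SJQYD with either group. The ratio to Gabarap gave no overlap either, from 0.236 to 0.396 in SJQYD, from 0.449 to 0.613 in model and from 0.437 to 0.653 in control. The ratio to Gabarapl2 ran from 2.28 to 3.73 in SJQYD, below the 3.99 to 5.31 of model and overlapping the 3.16 to 4.42 of control.

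**Figure D2:**
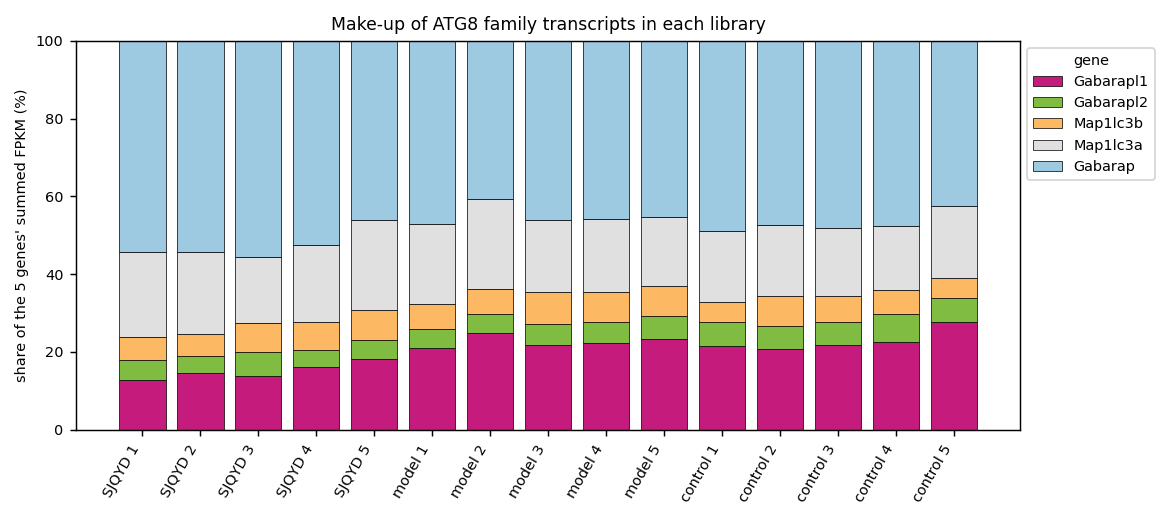
Share (y axis, percent) of each ATG8 gene in the summed FPKM of the 5 genes, 1 bar per library (x axis). The Gabarapl1 segment runs from 12.8% to 18.3% in the SJQYD libraries, below the 21.1% to 25.0% of model and the 20.7% to 27.6% of control libraries.

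Gabarapl2 (chromosome 8, 111940703 to 111953612), also known as GATE-16, had 17.2, 14.2, 18.9, 14.5 and 14.3 CPM in SJQYD glands, 14.1, 13.6, 17.1, 20.4 and 16.4 CPM in model glands and 29.0, 17.9, 22.9, 28.4 and 27.2 CPM in control glands. Both NOD/LTJ groups lay below 4 of the 5 control libraries, and control 2 fell within their range. It was lower in model than in control (-0.62 ± 0.15, 1.54-fold, edgeR adjusted p = 0.0239) and lower in SJQYD than in control (-0.66 ± 0.15, adjusted p = 0.00919), with -0.04 ± 0.15 for SJQYD against model (adjusted p = 0.933). The call for model against control was lost without control 1, control 4, control 5, model 1, model 2 or model 5 (adjusted p 0.0506 to 0.0729) and in a fit of the model and control libraries alone (adjusted p = 0.0527), and the call for SJQYD against control was kept in all 15 fits. Both differences rest on TMM scaling, and by total count alone Gabarapl2 stood at -0.12 for model against control (adjusted p = 0.732) and at -0.01 for SJQYD against control (adjusted p = 0.979). Its processed pseudogenes Gm6051, Gm5829 and Gm3724, at least 96.6% identical over 349 to 352 bases, stood at no more than 0.350 CPM in any library.

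Map1lc3b, the LC3 protein most used to follow autophagosomes, had 67.1, 58.5, 74.6, 77.7 and 72.7 CPM in SJQYD glands, 60.0, 61.8, 83.4, 91.4 and 70.3 CPM in model glands and 80.3, 77.3, 87.2, 78.8 and 71.3 CPM in control glands. The 3 groups overlapped, with fold changes of -0.07 ± 0.12 for SJQYD against model and -0.11 ± 0.12 for model against control. Gabarap, the most abundant member, ran from 106 to 147 CPM in SJQYD, from 93.3 to 134 CPM in model and from 115 to 183 CPM in control glands. It was 0.27 ± 0.13 for SJQYD against model (adjusted p = 0.343) and -0.43 ± 0.13 for model against control (adjusted p = 0.0728), and model against control was called lower without control 2 or model 4, without SJQYD 1, model 3 and control 2 together (-0.54, adjusted p = 0.0332) and by DESeq2 (0.0251). Map1lc3a ran from 27.1 to 37.5, from 25.0 to 35.0 and from 28.2 to 43.1 CPM in SJQYD, model and control glands. For SJQYD against model the 5 ATG8 genes ran from -0.55 to 0.27, with Gabarapl1 lowest and Gabarap highest.

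The proteins that join ATG12 to ATG5 and place the complex on the membrane include the genes called higher. Atg16l1 (chromosome 1, 87755870 to 87792428), the scaffold that carries the ATG12-ATG5 conjugate, had 28.2, 23.7, 24.7, 24.5 and 19.0 CPM in SJQYD glands, 19.6, 13.4, 16.6, 14.1 and 15.7 CPM in model glands and 19.1, 21.5, 12.5, 14.4 and 11.4 CPM in control glands. SJQYD 1 to SJQYD 4 were above all model and control libraries, and SJQYD 5 overlapped both. It was higher in SJQYD than in control (0.60 ± 0.17, 1.52-fold, edgeR adjusted p = 0.0301), and 0.59 ± 0.17 against model was not called (adjusted p = 0.071), though DESeq2 called it (adjusted p = 0.0213), as did a fit of SJQYD and model alone (adjusted p = 0.0329) and one without control 2 (adjusted p = 0.0400). The call against control was lost without control 3, control 4, control 5, SJQYD 1, SJQYD 2, SJQYD 3 or SJQYD 4 (adjusted p 0.0531 to 0.0806).

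Atg16l2 (chromosome 7, 101263034 to 101302251) had 12.6, 14.6, 9.58, 11.5 and 14.1 CPM in SJQYD glands, 13.1, 15.8, 14.3, 8.92 and 13.8 CPM in model glands and 7.67, 11.2, 8.70, 8.07 and 6.54 CPM in control glands. Both NOD/LTJ groups were above most control libraries, and control 2 overlapped them. The log2 fold change was 0.64 ± 0.17 for model against control (1.56-fold, edgeR adjusted p = 0.0378), 0.56 ± 0.17 for SJQYD against control (adjusted p = 0.0411) and -0.08 ± 0.17 for SJQYD against model. The first call was lost without control 1, control 3, control 4, control 5, model 1, model 2, model 3 or model 5 (adjusted p 0.0680 to 0.105), and the second in 10 of 15 fits, kept without control 2, model 2, model 3, model 4 or SJQYD 3. Atg16l2 is known to be expressed in leukocytes. Summed B cell markers (5 genes) ran from 9.38 to 44.9 CPM in SJQYD, from 30.5 to 69.5 CPM in model and from 0.0985 to 62.0 CPM in control glands. T cell markers (5 genes) ran from 6.12 to 72.0, from 14.5 to 118 and from 3.53 to 56.5 CPM, and both lists overlapped across the groups. Medians in SJQYD, model and control were 17.8, 42.9 and 5.29 CPM for B cells and 15.0, 19.9 and 7.67 CPM for T cells. Macrophage markers (7 genes) had medians of 77.9, 122 and 78.6 CPM. Atg16l2 itself was alike in SJQYD and model glands. Among control glands, control 2 had the highest B cell and T cell sums, 62.0 and 56.5 CPM. The other control glands had 0.0985 to 8.81 CPM of B cell and 3.53 to 9.09 CPM of T cell markers. The macrophage sum of control 2 was the lowest among control glands, at 66.7 CPM. The part of these lists in the result was not tested. The gene overlaps Fchsd2 on the other strand, which had 7.21, 8.11 and 6.52 CPM on average in SJQYD, model and control glands, and whether the counting used strand is not given in the sources used here. In FPKM the ratio of Atg16l2 to Atg16l1 averaged 0.602 ± 0.166 in SJQYD, 0.954 ± 0.246 in model and 0.617 ± 0.120 in control glands (SD, n = 5 each).

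Atg5 (chromosome 10, 44268358 to 44364291), the acceptor of ATG12, had 8.96, 8.98, 10.6, 11.1 and 8.25 CPM in SJQYD glands, 10.9, 9.23, 9.42, 11.9 and 10.5 CPM in model glands and 15.3, 10.6, 16.8, 11.5 and 13.5 CPM in control glands. SJQYD overlapped control only around control 2. It was lower in SJQYD than in control (-0.50 ± 0.14, 1.41-fold, edgeR adjusted p = 0.0283), with -0.38 ± 0.14 for model against control (adjusted p = 0.112, called without control 2 at 0.0399) and -0.12 ± 0.14 for SJQYD against model. The call was lost without control 1, control 3, control 5, SJQYD 1, SJQYD 2 or SJQYD 5 (adjusted p 0.0572 to 0.0777). Atg12 and Atg10, the E2-like enzyme that joins them, were not called by edgeR. Atg10 had 0.51 ± 0.18 for SJQYD against control (edgeR adjusted p = 0.0722) and was called higher there by DESeq2 (0.0470) and without control 1 (0.0218), and Atg12 had fold changes of -0.28 to 0.22 over the 3 comparisons.

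The E1-like enzyme Atg7, the E2-like enzyme Atg3 and the ATG4 proteases prepare and attach ATG8 proteins. Atg4c (chromosome 4, 99193934 to 99259787), the least abundant of the 4 proteases in FPKM, had 1.78, 1.60, 1.91, 2.25 and 3.00 CPM in SJQYD glands, 2.44, 2.15, 3.22, 2.39 and 2.19 CPM in model glands and 3.16, 3.03, 5.05, 4.09 and 3.58 CPM in control glands. All SJQYD libraries were below all control libraries, by a narrow margin at SJQYD 5. It fell for SJQYD against control (-0.84 ± 0.21, 1.79-fold lower, edgeR adjusted p = 0.018), with -0.61 ± 0.21 for model against control (adjusted p = 0.103, and -0.80 at 0.0479 without SJQYD 1, model 3 and control 2 together). The call was lost without control 3, SJQYD 1 or SJQYD 2 (adjusted p 0.0501 to 0.0525). Atg3 had -0.59 ± 0.18 for model against control (adjusted p = 0.0688) and -0.52 ± 0.18 for SJQYD against control (adjusted p = 0.0718), and was called lower by DESeq2 in both (0.0300 and 0.0489). edgeR called it lower for model against control without control 2 or model 4, and for SJQYD against control without model 4. Atg4d, the most abundant ATG4 gene in FPKM, had 0.26 ± 0.09 for SJQYD against control (adjusted p = 0.0705) and was called higher there by DESeq2 (0.0291), and Atg7, Atg4a and Atg4b were not called in any comparison by either tool. Atg4a-ps, 99.3% identical to Atg4a, stood at no more than 0.884 CPM.

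No gene of the initiation complex was called, with 0 of 5 in each comparison by edgeR and by DESeq2 and, at an unadjusted p under 0.05, 2 lower for model against control. Ulk1, the kinase that AMPK activates and mTORC1 inhibits, had 23.8, 25.7, 23.5, 31.6 and 26.3 CPM in SJQYD glands, 24.5, 23.3, 29.7, 19.1 and 26.9 CPM in model glands and 25.9, 28.7, 25.2, 25.96 and 25.0 CPM in control glands. The groups overlapped throughout, with fold changes of 0.08 ± 0.12 for SJQYD against model and -0.08 ± 0.12 for model against control. Its paralogue Ulk2 and the scaffold genes Atg13, Rb1cc1 (which encodes FIP200) and Atg101 were not called in any comparison. Atg13 ran from 17.9 to 26.7 CPM in SJQYD, from 16.6 to 21.7 CPM in model and from 22.02 to 27.6 CPM in control glands, and the model libraries were all below the control libraries (-0.36 ± 0.12, edgeR adjusted p = 0.0958). For the 5 genes, fold changes ran from -0.20 to 0.23 for SJQYD against model.

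Of the lipid kinase complex, the catalytic subunit was lower in SJQYD than in control glands. Pik3c3 (chromosome 18, 30272747 to 30348126), which encodes VPS34, had 6.18, 6.27, 6.63, 7.15 and 7.62 CPM in SJQYD glands, 9.36, 7.33, 8.93, 9.72 and 8.25 CPM in model glands and 7.67, 8.55, 10.1, 9.01 and 9.79 CPM in control glands. SJQYD lay below all control libraries, by a narrow margin between SJQYD 5 and control 1, and overlapped model only at model 2. It fell for SJQYD against control (-0.42 ± 0.12, 1.33-fold lower, edgeR adjusted p = 0.0328), and -0.37 ± 0.12 against model was not called (adjusted p = 0.117). The call was lost without control 3, control 4, control 5, SJQYD 1, SJQYD 2 or SJQYD 3 (adjusted p 0.0574 to 0.0865), without SJQYD 1, model 3 and control 2 together (adjusted p = 0.077), and narrowly with SJQYD and control alone in the fit (adjusted p = 0.0505). It was also lost with no filter on low counts.

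Becn1, which encodes Beclin 1, the regulated core of that complex, had 38.3, 36.1, 35.3, 33.6 and 33.0 CPM in SJQYD glands, 40.1, 31.1, 28.8, 28.9 and 38.002 CPM in model glands and 33.6, 34.3, 29.0, 32.9 and 31.1 CPM in control glands. The groups overlapped, with fold changes of 0.08 ± 0.11 for SJQYD against model and 0.05 ± 0.11 for model against control. Pik3r4, the regulatory subunit VPS15, and Atg14 and Uvrag, which direct the complex to autophagosomes or endosomes, were not called in any comparison. Some Uvrag sequence matches repeats in other genes, so its counts are less certain.

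**Figure D3:**
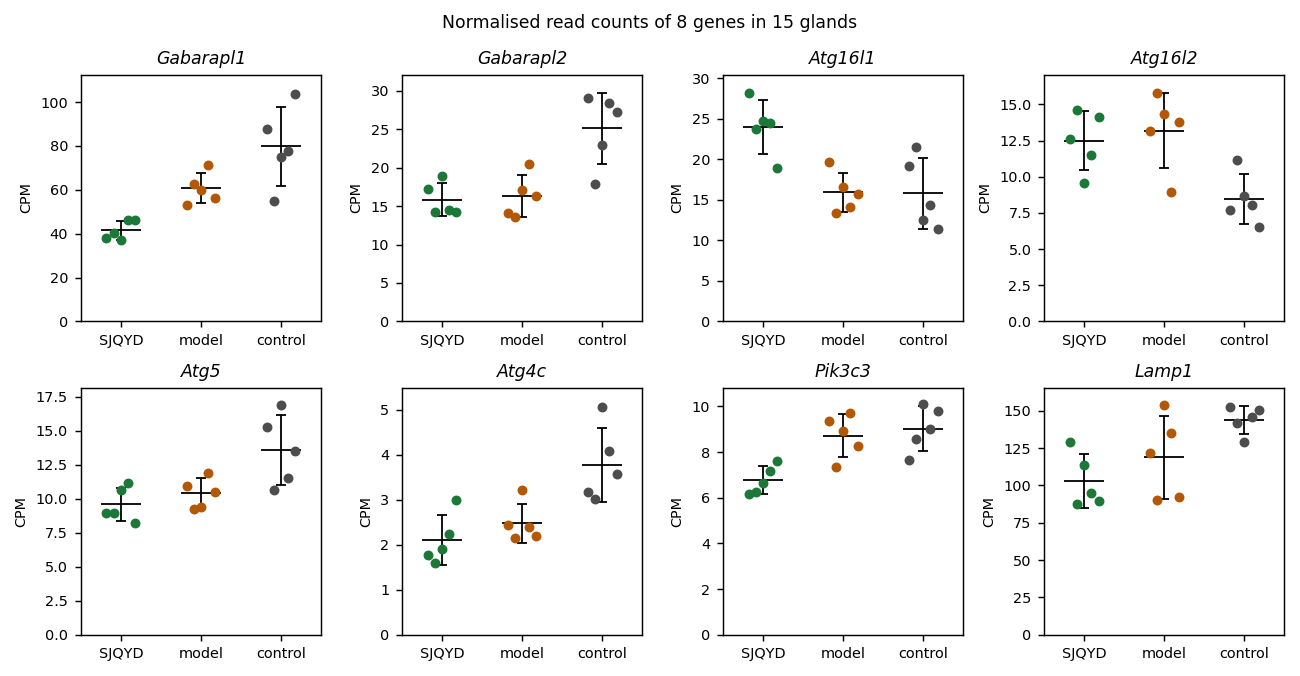
Normalised read counts (CPM, y axis, from 0) of 8 genes in each of the 15 glands (points), with group mean and SD (n = 5), for SJQYD, model and control (x axis). All SJQYD values of Gabarapl1 (37.3 to 46.0 CPM) lie below those of model (53.3 to 71.1 CPM), while Gabarapl2 in both NOD/LTJ groups lies below 4 of 5 control values.

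None of the 6 genes that supply membrane was called by edgeR or DESeq2, and at an unadjusted p under 0.05 there were 1 higher for model against control and 2 lower for SJQYD against control: Atg9a and Atg9b, lipid scramblases, Atg2a and Atg2b, lipid transfer proteins, and Wipi1 and Wipi2, which read the lipid mark. Atg9b had -0.64 ± 0.23 (edgeR adjusted p = 0.0799, called without control 4 at 0.0384) and Wipi1 -0.47 ± 0.17 (adjusted p = 0.0801) for SJQYD against control. Wipi2 overlapped across groups, from 46.2 to 50.6 CPM in SJQYD, from 43.3 to 52.5 CPM in model and from 42.1 to 50.5 CPM in control glands. Atg9a varied in a way that its annotation touches. It had 5.59, 6.89, 6.92, 4.63 and 8.89 CPM in SJQYD glands, 4.66, 12.1, 3.92, 4.25 and 4.60 CPM in model glands and 6.66, 7.69, 6.45, 3.89 and 6.87 CPM in control glands, so that model 2 stood far above its group. Gm29253, a transcript on the same strand that overlaps Atg9a and is 99.9% identical to it over 1073 bases, had 0 counts in model 2 (which allows up to 0.0438 CPM) and 9.55 to 10.9 CPM in the other 4 model glands. The sum of both ran from 14.9 to 21.97 CPM in SJQYD, from 12.1 to 15.5 CPM in model and from 13.5 to 25.4 CPM in control glands, and model 2 was then the lowest of its group. The Atg9a counts of single libraries are therefore uncertain.

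**Figure D4:**
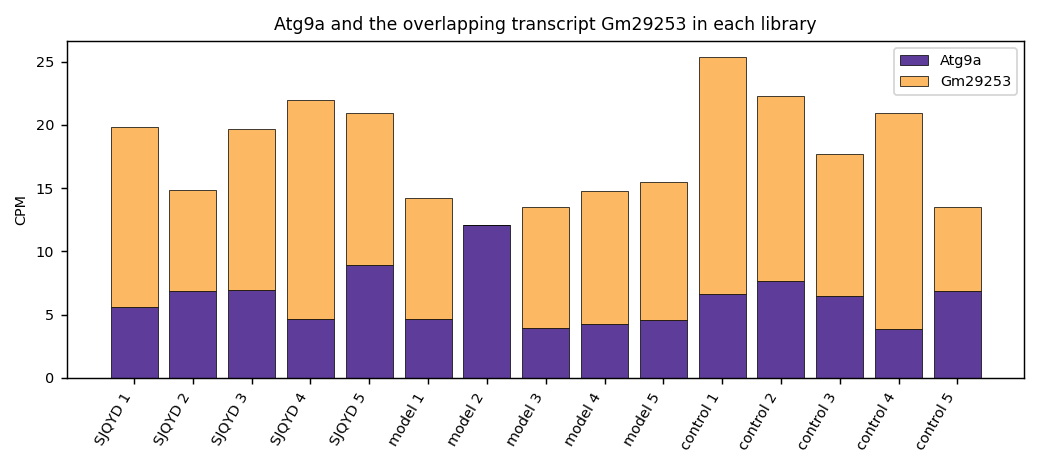
CPM (y axis, from 0) of Atg9a and of the overlapping transcript Gm29253, stacked, in each library (x axis). In model 2 all 12.1 CPM are assigned to Atg9a and none to Gm29253, while the other model libraries hold 3.92 to 4.66 CPM of Atg9a.

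Cargo receptors link ubiquitin-marked material to ATG8 proteins. Sqstm1, which encodes p62, had 60.8, 77.0, 86.7, 83.0 and 82.1 CPM in SJQYD glands, 69.0, 71.9, 68.3, 93.2 and 63.5 CPM in model glands and 94.5, 67.8, 95.4, 81.3 and 96.4 CPM in control glands. The groups overlapped, with fold changes of 0.09 ± 0.13 for SJQYD against model and -0.25 ± 0.13 for model against control. Nbr1, a related receptor, ran from 51.6 to 75.5 CPM in SJQYD, from 53.6 to 61.8 CPM in model and from 64.8 to 91.0 CPM in control glands, and missed the call for model against control (-0.40 ± 0.11, edgeR adjusted p = 0.055). It was called lower there without control 2, SJQYD 1 or SJQYD 5, without SJQYD 1, model 3 and control 2 together (-0.47, adjusted p = 0.0245) and by DESeq2 (0.0158). Optn was not called in any comparison.

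Tfeb, the transcription factor that drives lysosome and autophagy genes, had 21.8, 28.7, 15.1, 18.6 and 20.5 CPM in SJQYD glands, 19.4, 21.7, 20.5, 13.6 and 19.4 CPM in model glands and 15.1, 14.2, 16.0, 13.1 and 19.6 CPM in control glands. SJQYD and model overlapped control, and no comparison was called (0.43 ± 0.16 for SJQYD against control, edgeR adjusted p = 0.102). It was called higher for SJQYD against control without SJQYD 3, its lowest SJQYD library. Lamp1 (chromosome 8, 13159161 to 13175338), an abundant glycoprotein of the lysosome membrane, had 129, 87.4, 114, 94.8 and 89.5 CPM in SJQYD glands, 122, 89.9, 154, 135 and 92.6 CPM in model glands and 153, 142, 129, 146 and 151 CPM in control glands. Only SJQYD 1 reached the lowest control library. The fold change of -0.48 ± 0.15 for SJQYD against control just missed the call (adjusted p = 0.0506), and passed with DESeq2 (0.0212), with SJQYD and control alone in the fit (0.0289) and without SJQYD 1, model 3 and control 2 together (0.0236). By total count alone the direction turned, to 0.17 (adjusted p = 0.651), and mean FPKM was 40.8 ± 20.6 in SJQYD, 42.4 ± 12.9 in model and 36.7 ± 7.35 in control glands (SD, n = 5 each). Lamp1 overlaps Grtp1 on the other strand, which averaged 12.0, 14.4 and 11.04 CPM in SJQYD, model and control glands. Lamp2, needed for fusion and for chaperone-mediated autophagy, had 35.3, 36.5, 32.6, 39.5 and 31.1 CPM in SJQYD glands, 32.1, 31.9, 36.8, 42.2 and 32.2 CPM in model glands and 39.4, 35.3, 39.3, 42.2 and 46.6 CPM in control glands. Its groups overlapped and it was not called, with -0.21 ± 0.11 for model against control and an adjusted p of 0.997 for SJQYD against model.

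Around the core genes, 8 further lists of the pathway were read in the same fit. For SJQYD against model, Foxo1, Sesn3, Ctss and Ctsc were lower and no gene of these lists was called higher by edgeR. Without SJQYD 1, model 3 and control 2 together none of these 4 was called, with log2 fold changes of -0.45, -0.79, -1.03 and -0.58 and adjusted p of 0.1002, 0.153, 0.0894 and 0.0940 in that order. Foxo1, a forkhead factor known to induce autophagy genes in muscle and liver, had 13.5, 12.1, 13.8, 13.2 and 12.5 CPM in SJQYD glands, 17.4, 17.6, 18.1, 20.2 and 15.3 CPM in model glands and 20.7, 16.7, 16.8, 17.7 and 15.8 CPM in control glands. All SJQYD values were below all values of both other groups (-0.45 ± 0.10 against model, edgeR adjusted p = 0.0222, lost without model 3 or SJQYD 2 at 0.0517 and 0.0574). It was the 1 that edgeR called of 7 other transcription factors (14.3%, beside 2.75% of all genes), which include Tfe3, Mitf and Foxo3. Zkscan3, a repressor of autophagy genes, was higher without overlap, with 27.3 to 32.6 CPM in SJQYD and 16.3 to 24.6 CPM in model glands, and was called higher by DESeq2 (adjusted p = 0.0175) and not by edgeR (adjusted p = 0.0648). Sesn3, a stress-induced inhibitor of mTORC1 and a known target of FOXO factors, was the 1 called of 32 genes of mTORC1, AMPK and nutrient sensing (3.1%, near the 2.75% of all genes). It had 6.75, 7.41, 9.69, 4.83 and 6.45 CPM in SJQYD glands, 16.2, 9.50, 13.0, 9.23 and 14.4 CPM in model glands and 12.8, 14.7, 11.3, 12.1 and 17.6 CPM in control glands. Only SJQYD 3 reached the lowest model values (-0.83 ± 0.19, adjusted p = 0.0285, lost without model 1, model 3, model 5, SJQYD 1, SJQYD 2, SJQYD 4 or SJQYD 5 at 0.0557 to 0.0800).

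Of 44 lysosomal hydrolases and activators, 2 fell and 0 rose for SJQYD against model (4.55%, beside 2.75% of all genes called either way). Ctss, a cathepsin of antigen-presenting cells, had 4.95, 9.56, 8.49, 6.81 and 9.07 CPM in SJQYD glands, 19.9, 12.5, 12.8, 13.1 and 24.1 CPM in model glands and 12.6, 12.8, 12.7, 14.3 and 25.8 CPM in control glands (-1.09 ± 0.25 against model, edgeR adjusted p = 0.0274). Ctsc, which activates granule proteases of leukocytes, had 8.14, 9.65, 8.88, 7.40 and 9.26 CPM in SJQYD glands, 14.2, 12.3, 12.4, 14.5 and 11.6 CPM in model glands and 18.1, 13.3, 13.9, 14.1 and 20.7 CPM in control glands (-0.59 ± 0.13, adjusted p = 0.0243). Both were lower in every SJQYD library than in any other library. Ctss lost its call without model 1, model 5, SJQYD 1, SJQYD 3 or SJQYD 4 (adjusted p 0.0517 to 0.0775), and Ctsc without model 1, model 4, SJQYD 1 or SJQYD 4 (0.0510 to 0.0724). The summed CPM of 7 macrophage markers ran from 72.4 to 93.1 in SJQYD, from 105 to 131 in model and from 66.7 to 124 in control glands. Its medians were 77.9, 122 and 78.6 CPM in that order. The sum was lower in every SJQYD than in every model library, and SJQYD and control overlapped. Among control glands, control 5 had the highest marker sum (124 CPM) and the highest Ctss and Ctsc. Among model glands, model 5 had the highest Ctss and the lowest marker sum (105 CPM). The part of macrophages in these results was not tested. At an unadjusted p under 0.05, 13 hydrolases and activators were lower and 1 higher, and DESeq2 called 5 lower and 0 higher. No share of all genes is given for either count, so neither can be read as an excess in this list. edgeR called no gene among 23 other lysosome membrane genes, 23 subunits of the vacuolar ATPase, 11 other genes of autophagosome formation, 23 other cargo receptors and mitophagy genes and 16 fusion genes, where 2.75% of all genes were called. DESeq2 called 1 lysosome membrane gene and 1 cargo receptor or mitophagy gene higher among these. At an unadjusted p under 0.05 these lists held 3 higher and 3 lower, 2 and 2, 1 and 2, 1 and 1, and 1 and 0 genes in the order given.

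**Figure D5:**
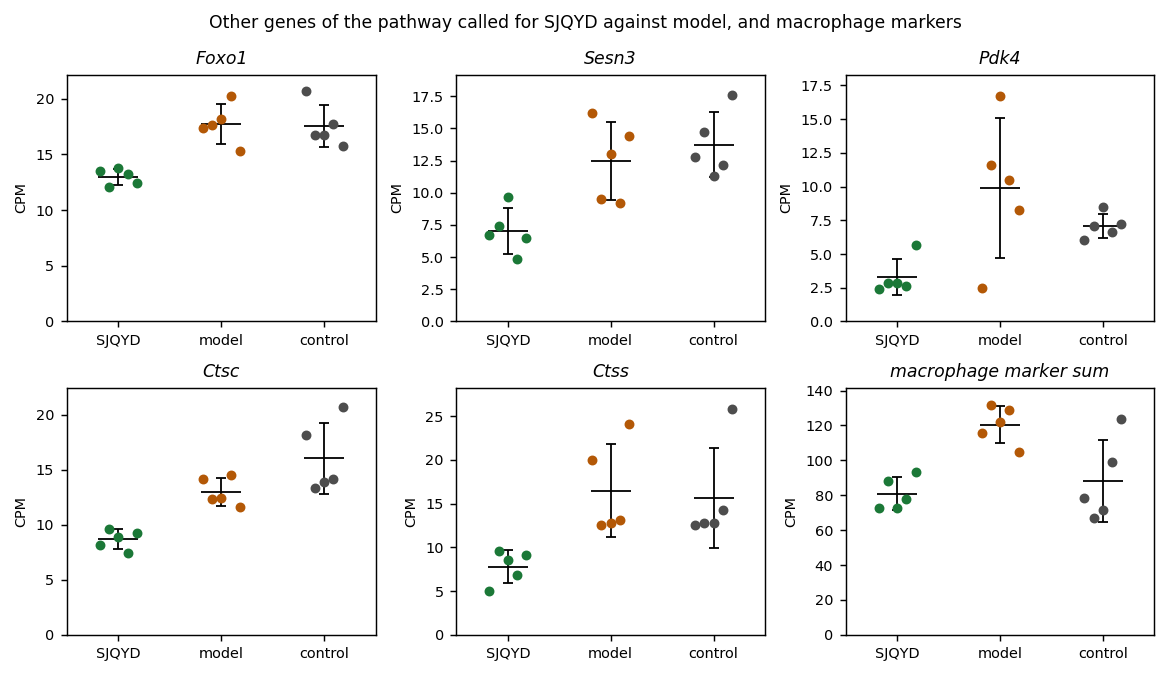
CPM (y axis, from 0) in each gland (points) with group mean and SD (n = 5) of Foxo1, Sesn3, Pdk4, Ctsc, Ctss and the sum of 7 macrophage markers, for SJQYD, model and control (x axis). Foxo1, Ctsc and Ctss are lower in all SJQYD glands than in any model gland, and the marker sum of SJQYD (72.4 to 93.1 CPM) lies below that of model (105 to 131 CPM).

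The circadian clock genes Dbp, Per2 and Arntl had larger fold changes for SJQYD against model than any of the 38 genes. Dbp, a clock output factor, had 136, 168, 204, 229 and 235 CPM in SJQYD glands, 3.90, 11.9, 2.56, 17.99 and 1.47 CPM in model glands and 0.6996, 4.03, 0.985, 0.469 and 6.93 CPM in control glands. Per2 had 26.4 to 55.2 CPM in SJQYD, 1.07 to 4.22 CPM in model and 2.81 to 6.33 CPM in control glands, and Arntl, which encodes BMAL1, had 0.484 to 1.13, 4.88 to 20.3 and 9.59 to 37.2 CPM in the same order. The log2 fold changes for SJQYD against model were 4.68 ± 0.87, 4.04 ± 0.35 and -3.71 ± 0.44, and each was called by edgeR in all 15 fits with 1 library left out. Without SJQYD 1, model 3 and control 2 together Dbp was not called (4.57, adjusted p = 0.0800). Autophagy is known to vary with the hour in mouse liver. The labels give no hour of collection, so the treatment and the hour cannot be told apart for any gene named here.

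For model against control, 5 of 44 lysosomal hydrolases and activators rose and 0 fell by edgeR (11.4%, beside 5.07% of all genes), with 10 higher and 2 lower at an unadjusted p under 0.05 and 6 higher and 1 lower by DESeq2. Those named had a log2 fold change of 0.38 ± 0.09 for Ctsa (protective protein, edgeR adjusted p = 0.0239), 0.40 ± 0.10 for Ctsz and 0.40 ± 0.10 for Gm2a (GM2 activator). Of these calls the Ctsa one was lost without control 1, control 4, model 2 or model 3 (adjusted p 0.0512 to 0.0690), Ctsz without control 1, control 4, control 5 or any of model 1 to model 4 (0.0534 to 0.0866), and Gm2a without control 1, control 3, control 5, model 1, model 2, model 4, model 5 or SJQYD 4 (0.0509 to 0.0974). Without SJQYD 1, model 3 and control 2 together the calls of Ctsa and Ctsz were lost (0.0535 and 0.0779). Tpcn2, an ion channel of endolysosomes, rose (0.70 ± 0.12, adjusted p = 0.00471), and Tmem41b, a scramblase of the endoplasmic reticulum needed for autophagosome formation, fell (-0.99 ± 0.16, adjusted p = 0.00277). Both kept their call in all 15 fits, and Tmem41b had 4.63 to 7.44 CPM in model against 8.33 to 14.2 CPM in control glands without overlap. Vps16, of the HOPS tethering complex, rose (0.51 ± 0.13, lost without control 1, control 3, control 4, control 5, model 1, model 2 or model 5 at 0.0529 to 0.0826), and Deptor, an inhibitor of mTOR, fell (-0.41 ± 0.12, lost in 13 of 15 fits at 0.0541 to 0.119 and kept without control 2 or model 4).

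For SJQYD against control the mTORC1, AMPK and nutrient sensing list held 2 of 32 genes higher and 6 lower (25.0%, beside 11.1% of all genes). Sesn3 fell (-0.96 ± 0.20, edgeR adjusted p = 0.00547), as did Lamtor5 and Rragd, which hold mTORC1 at the lysosome (-0.38 ± 0.10 and -0.55 ± 0.15), and Nprl3, of the GATOR1 complex that restrains mTORC1, rose (0.58 ± 0.15). Sesn3 kept its call in all 15 fits. Nprl3 lost it without control 1, control 5 or SJQYD 2 (0.0532 to 0.0603) and without SJQYD 1, model 3 and control 2 together (0.0625), Lamtor5 without control 3, control 5, SJQYD 1, SJQYD 2 or SJQYD 5 (0.0513 to 0.0721) and Rragd without control 1, control 5, SJQYD 1, SJQYD 3 or SJQYD 5 (0.0578 to 0.0849). Of 44 hydrolases and activators 3 rose and 4 fell (15.9%, beside 11.1% of all genes). Ctsc (-0.89 ± 0.13) and Ids (iduronate sulfatase, -0.94 ± 0.15) were lower and Gm2a (0.46 ± 0.10) higher, all 3 kept in 15 of 15 fits. The vacuolar ATPase, which acidifies the lysosome, had 1 of 23 subunits higher and 3 lower (17.4%, beside 11.1% of all genes). Tcirg1 was higher (0.53 ± 0.14), and Atp6v0c (-0.58 ± 0.11, adjusted p = 0.00298), Atp6v1h (-0.50 ± 0.13) and Atp6ap2 (-0.57 ± 0.17) were lower. Of these 4, Atp6v0c alone kept its call in all 15 fits. Atp6v1h lost it without control 1, control 5, SJQYD 1 or SJQYD 5 (0.0581 to 0.0635), Tcirg1 without control 3, control 4, control 5, SJQYD 1 or SJQYD 2 (0.0519 to 0.0742) and Atp6ap2 without control 1, control 3, control 4, control 5, SJQYD 2, SJQYD 4 or SJQYD 5 (0.0558 to 0.0888).

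Other lysosome membrane genes were split, with Laptm4a (-0.66 ± 0.13, edgeR adjusted p = 0.0036) and Laptm4b (-0.52 ± 0.14) lower and Sidt2, an RNA and DNA transporter (0.55 ± 0.13), and Tpcn2 (0.40 ± 0.12) higher in SJQYD than in control glands, 4 of 23 in all (17.4%, beside 11.1% of all genes). Laptm4a and Sidt2 kept their calls in all 15 fits, Laptm4b lost it without control 1, control 5, SJQYD 1 or SJQYD 5 (0.0513 to 0.0689), and Tpcn2 kept it only without control 4, model 3 or model 4 (0.0502 to 0.102 in the others), and lost it without SJQYD 1, model 3 and control 2 together (0.1002). Of 7 other transcription factors 3 were called (42.9%, beside 11.1%). Foxo1 (-0.43 ± 0.10) and Foxo4 (-0.36 ± 0.11) fell and Zkscan3 rose (0.53 ± 0.16), with the Foxo1 call kept in all 15 fits, the Foxo4 call kept only without SJQYD 1 or any of model 2 to model 5 (0.0558 to 0.103 in the others) and the Zkscan3 call only without control 2, model 1, model 2 or model 4 (0.0524 to 0.0995). Zfyve1, which encodes the omegasome protein DFCP1, fell (-0.96 ± 0.18, adjusted p = 0.00358, kept in all 15 fits), as did Tmem41b (-0.60 ± 0.16, lost without control 1, control 4, control 5, SJQYD 1 or SJQYD 4 at 0.0507 to 0.0574). Of the fusion genes Tecpr1 rose (0.69 ± 0.15, kept in all 15 fits) and Rab7 fell (-0.36 ± 0.10, lost without control 1, control 3, control 4, control 5 or any of SJQYD 1 to SJQYD 4 at 0.0506 to 0.0769). Of 23 other cargo receptors and mitophagy genes edgeR called 0, with 2 higher and 5 lower at an unadjusted p under 0.05 and 2 lower by DESeq2. Scaled by total count alone, as for the 38 genes, Laptm4b, Atp6v0c, Atp6v1h, Atp6ap2, Lamtor5, Rragd, Foxo1, Foxo4 and Rab7 stood above 0 for SJQYD against control, and Deptor for model against control, with none called.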

How the data were processed

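Polyadenylated RNA of 15 submandibular glands was sequenced as paired reads of 150 bases from strand-marked libraries with unique molecular identifiers, per the labels' protocols. The submitters' processing notes name the build mm9, edgeR, DESeq2, StringTie 1.3.4d, HISAT2 2.0.4, cutadapt 1.9 and UMI-tools, without their roles. Whether reads were counted by strand and deduplicated is not given in the sources used here. The deposited coordinates equal those of GRCm38 for 29470 of 32385 genes (91.0%) and for 35 of 38 genes described here, so they are given as GRCm38. The authors deposited raw read counts for 55401 genes, all of whose rows name a gene, and FPKM values for 32479 genes, the same counts scaled by length and library total. The 22922 other genes had no count. Of the 38 genes, those on chromosome 18 (Pik3c3 and Atg12) were left out of the promoter windows. No such limit was set for the windows of all genes.

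Counts were tested with edgeR 4.0.16 in R 4.3.3 (quasi-likelihood, robust, TMM, filterByExpr, 1 mean per group over all 15 libraries, Benjamini-Hochberg over 18136 genes). The same steps had first been run on simulated data. The changes set there were larger than any of the 38 genes, so that run does not bear on calls of smaller changes. Standard errors are the fold change divided by the root of F. DESeq2 1.42.0, limma 3.58.1 on log2(FPKM + 1) and log2(FPKM + 0.1) with at least 0.5 FPKM in 5 libraries or no filter, other scalings and filters, 2-group fits, a threshold of 0.01, a replicate block and fits without libraries were alternatives. The main fit did not pair libraries by replicate number (correlations of same-numbered libraries of -0.226 to 0.160). No libraries of a group agreed within sampling noise, the smallest chi-square per gene being 74.0. A floor is 3 counts.

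Values in every library are given for genes called in any comparison and for Ulk1, Becn1, Map1lc3b, Gabarapl1, Sqstm1, Tfeb, Lamp1 and Lamp2. Of each further list up to 4 called genes with the smallest p are named, except 1 that is not reported here. The 38 genes and the lists were chosen with earlier results of these data known.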

Additional observations from a re-analysis of the deposited data

Results flagged for a closer look

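In 10 of 114 sets of 5 libraries, 1 library lay farther from the others than Dixon's limit for 5 values (0.71 of the range), where chance gives about 1 in 20. Atg9a had 12.1 CPM in model 2 and 3.92 to 4.66 CPM in the other model glands, and Gm29253, which overlaps it, had 0 counts there. Atg4c had 3.22 CPM in model 3 and 2.15 to 2.44 CPM in the others. Sqstm1 had 93.2 CPM in model 4 against 63.5 to 71.9 CPM, and Tfeb had 13.6 CPM in the same gland against 19.4 to 21.7 CPM. Gabarap had 106 CPM in SJQYD 5 against 137 to 147 CPM in the other SJQYD glands, and Optn had 8.68 CPM there against 5.63 to 6.44 CPM. Uvrag had 6.85 CPM in SJQYD 2 against 5.199 to 5.66 CPM. Among control glands, Optn had 8.39 CPM in control 5 against 5.25 to 5.88 CPM, Atg10 had 5.60 CPM in control 1 against 3.17 to 3.78 CPM, and Ulk1 had 28.7 CPM in control 2 against 25.0 to 25.96 CPM. Of these genes only Atg4c was called by edgeR in any comparison, and only for SJQYD against control, which does not use the values of model 3 in its means.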

How the results depend on the processing

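Counts of called genes changed with the setting. The fold changes recomputed under every setting were 13 for the 38 genes and 38 for other genes, and none of these changed direction relative to the median gene. For model against control, where edgeR called 1 gene higher and 1 lower, scaling by total count alone gave 2 and 0, a fit of the 2 groups alone 0 and 0, a threshold of 0.01 0 and 0, DESeq2 4 lower, limma on log2(FPKM + 1) 2 higher and 0 lower, on log2(FPKM + 0.1) 3 and 0, and on log2(FPKM + 1) with no filter 0 lower. Without control 2, model 3 and SJQYD 1 together, 5 were lower. For SJQYD against model, where 0 were higher and 1 lower, DESeq2 and the 2-group fit gave 1 higher each. No gene was lower (0) with DESeq2's size factors in edgeR, by total count alone, in the 3 limma fits, without those 3 libraries together or at 0.01. With the replicate block 0 were lower as well (Gabarapl1 at adjusted p = 0.0614), and no other call for the 38 genes was lost with it. For SJQYD against control, where 2 were higher and 5 lower, total count alone gave 11 and 0, DESeq2 4 higher, limma 8 and 0, 10 and 0, and 0 lower with no filter, and the threshold of 0.01 gave 0 and 2. FPKM follows the library total, as the total count does, and the cause of the other changes was not tested. Leaving out 1 library gave 0 to 1 higher and 0 to 6 lower for model against control, 0 to 1 and 0 to 1 for SJQYD against model, and 0 to 2 and 2 to 7 for SJQYD against control. Without SJQYD 3 the Gabarapl1 difference from model was -0.51 (adjusted p = 0.104). The labels do not say whether replicate numbers name anything shared between groups. In 3 of 15 same-numbered pairs, the library of the first group correlated best with its same-numbered library among the 5 of the second. The reverse was not checked. All 3 were pairs of replicate 4 (correlations of 0.131, 0.082 and 0.160). The lowest-count gene, Atg4c, had at least 74 reads per library.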

Other observations

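Lists outside autophagy were read in the same fit. Of 19 clock genes, 10 were called higher and 3 lower for SJQYD against model, 11 higher and 6 lower for SJQYD against control, and 0 higher and 3 lower for model against control, beside 2.75%, 11.1% and 5.07% of all genes called either way. Those called for model against control were Nfil3 (-0.95 ± 0.23), Rora (-0.56 ± 0.14) and Cry1 (-1.03 ± 0.26). At an unadjusted p under 0.05 in edgeR, 2 clock genes were higher and 6 lower for model against control, and DESeq2 called 0 higher and 4 lower. Nfil3 lost its call without control 1, control 4, model 1, model 2 or model 3, Rora without control 1, control 4, control 5, model 1, model 2 or model 5, and Cry1 without control 1, control 3, control 4, model 1, model 2 or model 5 (adjusted p 0.0539 to 0.0833 over the 3 genes). Of 10 genes that glucocorticoids are known to induce, 6 stood above 0 for SJQYD against model. The median of the 10 was 0.24 on the log2 scale, beside -0.03 for all genes. At an unadjusted p under 0.05 in edgeR, 3 were higher and 1 lower, and DESeq2 called 1 higher and 1 lower. By adjusted p edgeR called 0 higher and 1 lower, beside 2.75% of all genes called either way. The 1 called lower was Pdk4, a kinase that limits glucose oxidation (-1.60 ± 0.37, edgeR adjusted p = 0.0305). It had 2.44, 2.82, 2.86, 2.61 and 5.68 CPM in SJQYD glands, 2.44, 11.6, 16.7, 10.5 and 8.23 CPM in model glands and 6.07, 7.09, 8.50, 6.65 and 7.20 CPM in control glands, so that model 1 overlapped SJQYD. The call was lost without model 2, model 3, model 4 or any of SJQYD 1 to SJQYD 4 (adjusted p 0.0544 to 0.0908), and without SJQYD 1, model 3 and control 2 together (-1.23, adjusted p = 0.197). Tsc22d3, a glucocorticoid-induced regulator of inflammation, was called higher for SJQYD against control (1.31 ± 0.23, adjusted p = 0.00278), with 42.0 ± 9.99 CPM in SJQYD, 23.8 ± 8.10 CPM in model and 17.0 ± 3.50 CPM in control glands (SD, n = 5 each).

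Marker sums of other cell types varied within groups. Plasma cell markers (4 genes) ran from 85.1 to 204 CPM in SJQYD, from 63.8 to 231 CPM in model and from 7.98 to 134 CPM in control glands. Adipocyte markers (5 genes) ran from 13.4 to 259, from 14.9 to 378 and from 7.42 to 28.6 CPM in SJQYD, model and control glands, and sublingual gland markers (4 genes) from 81.7 to 39720, from 3223 to 31755 and from 30.6 to 39834 CPM. Medians of the sublingual sum were 22866 CPM in SJQYD, 7607 CPM in model and 1356 CPM in control glands. Plasma cell medians were 118, 195 and 22.9 CPM and adipocyte medians 16.4, 16.8 and 9.74 CPM in the same order. No fit left out the libraries rich in sublingual transcripts together. The part of these cell types in the results for the 38 genes was not tested.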
